A study of Mus musculus with 6 samples.

Results

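Genes for enzymes that metabolize xenobiotics, the foreign compounds and drugs that reach the liver, were described in RNA of sorted Kupffer cells, macrophages that reside in the liver sinusoids. The members were all protein-coding genes of the count table whose symbols belong to the cytochrome P450 families Cyp1 to Cyp4, the UDP-glucuronosyltransferase families Ugt1 and Ugt2, the glutathione S-transferase classes Gsta, Gstk, Gstm, Gsto, Gstp, Gstt and Gstz, the sulfotransferases (Sult), the carboxylesterases Ces1 to Ces5 and the flavin-containing monooxygenases Fmo1 to Fmo5, leaving out 2 Cyp4a genes. They numbered 165 of 54532 genes, or of 22046 protein-coding genes. At least 1 read was counted for 123 of them and none for 42. Of the 165, 82 passed the filter on low counts and were tested among 13776 genes.

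The study compared Kupffer cells of Trem2-deficient mice (Trem2_KO, labelled Trem2 KO or Trem2-/-) with those of littermate wild-type mice (WT, labelled control). TREM2 is a receptor through which macrophages sense lipids. Both groups were male, were 8 weeks old at the start and were fed a high fat diet for 8 weeks, so no group on another diet enters the comparison. Each group had 3 libraries. The sources used here neither name the deleted part of Trem2 nor tie each library to 1 mouse, so the spread behind each p-value is that among these libraries and may be technical.

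Xenobiotic metabolism runs in phases. Phase I enzymes, which include cytochrome P450s, flavin monooxygenases and carboxylesterases, oxidize or hydrolyse a compound, and phase II enzymes attach glucuronic acid (Ugt), glutathione (Gst) or sulfate (Sult) to make it soluble. In liver, hepatocytes carry most of this activity, and many of the genes are controlled there by ligand-sensing receptors such as the aryl hydrocarbon receptor, the pregnane X receptor and the constitutive androstane receptor. Several mouse members are also expressed at different levels in the livers of males and females.

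Total counts ran from 16347967 to 17135603 in Trem2_KO and from 15799351 to 15893041 in WT. The label check gene Trem2 had 288, 286 and 246 reads in Trem2_KO, against 1328, 1409 and 1319 in WT. Its log2 change was -2.42 (SE 0.06, edgeR adjusted p = 1.6e-35). All 16 Kupffer cell markers were tested, and their summed level was 59734 to 60787 CPM (reads per 1e+06, scaled by TMM) in Trem2_KO and 68136 to 69969 CPM in WT. Of these 16, 13 were called lower, Marco most clearly with a log2 change of -1.11, then Hmox1 at -0.46 and Slc40a1 at -0.38. Of the markers of other liver cells, 30 of 30 hepatocyte genes were tested, with 1991 to 2032 summed CPM in Trem2_KO and 2156 to 2250 CPM in WT, a ratio of 0.913, and none was at 0. Alb, the most abundant plasma protein gene of hepatocytes, had 769, 762 and 805 CPM in Trem2_KO, against 783, 826 and 806 CPM in WT. Of the hepatocyte genes, 7 were called higher and 9 lower, with Serpina3k at -0.72, Apoa1 at -0.71 and Ahsg at -0.68 the clearest falls and Pck1 at 0.42, Hpx at 0.31 and Itih4 at 0.33 the clearest rises by p, on the log2 scale. The median log2 change of the 30 was -0.05, and 14 were not called. Over all tested genes, higher calls made up 15.3% and lower calls 15.1%. Sinusoidal endothelial markers summed to 2059 to 2076 CPM in Trem2_KO and 2093 to 2108 CPM in WT, with 12 of 16 called higher and 2 lower. The ranges in Trem2_KO and WT were 270 to 274 and 224 to 232 CPM for stellate cell markers, 808 to 840 and 759 to 773 CPM for monocyte markers, and 92.1 to 103 and 117 to 121 CPM for B and plasma cell markers. They were 9.64 to 10.5 and 2.42 to 3.89 CPM for cholangiocyte markers (Cldn4 at 0), 184 to 195 and 194 to 210.5 CPM for neutrophil markers (Ly6g at 0), and 8.61 to 9.93 and 7.21 to 9.26 CPM for T and NK cell markers. The part of these other cells in the values below was not tested, and in bulk RNA fewer cells of a type and less RNA per cell cannot be told apart.

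Measured per gene length, the most abundant xenobiotic enzyme transcripts were those of a few broadly acting enzymes. Mean deposited FPKM over the 6 libraries was 89.4 for Gstp1, a pi-class glutathione S-transferase, which placed it at rank 488 of 13776 tested genes. It was 64.5 FPKM for Sult1a1, a phenol sulfotransferase, and 43.5 FPKM for Cyp2e1, the ethanol-inducible P450. Gsto1, an omega-class transferase, Cyp4v3, a fatty acid hydroxylase, and Gstm1, a mu-class transferase, followed at 37.8, 22.5 and 21.3 FPKM. These 6 genes held 55.6% to 56.7% of the summed member FPKM in Trem2_KO libraries and 56.5% to 56.9% in WT libraries. Of the 82 tested members, 12 averaged at least 10 FPKM, 44 lay from 1 to 10 FPKM and 26 lay below 1 FPKM.

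**Figure D1:**
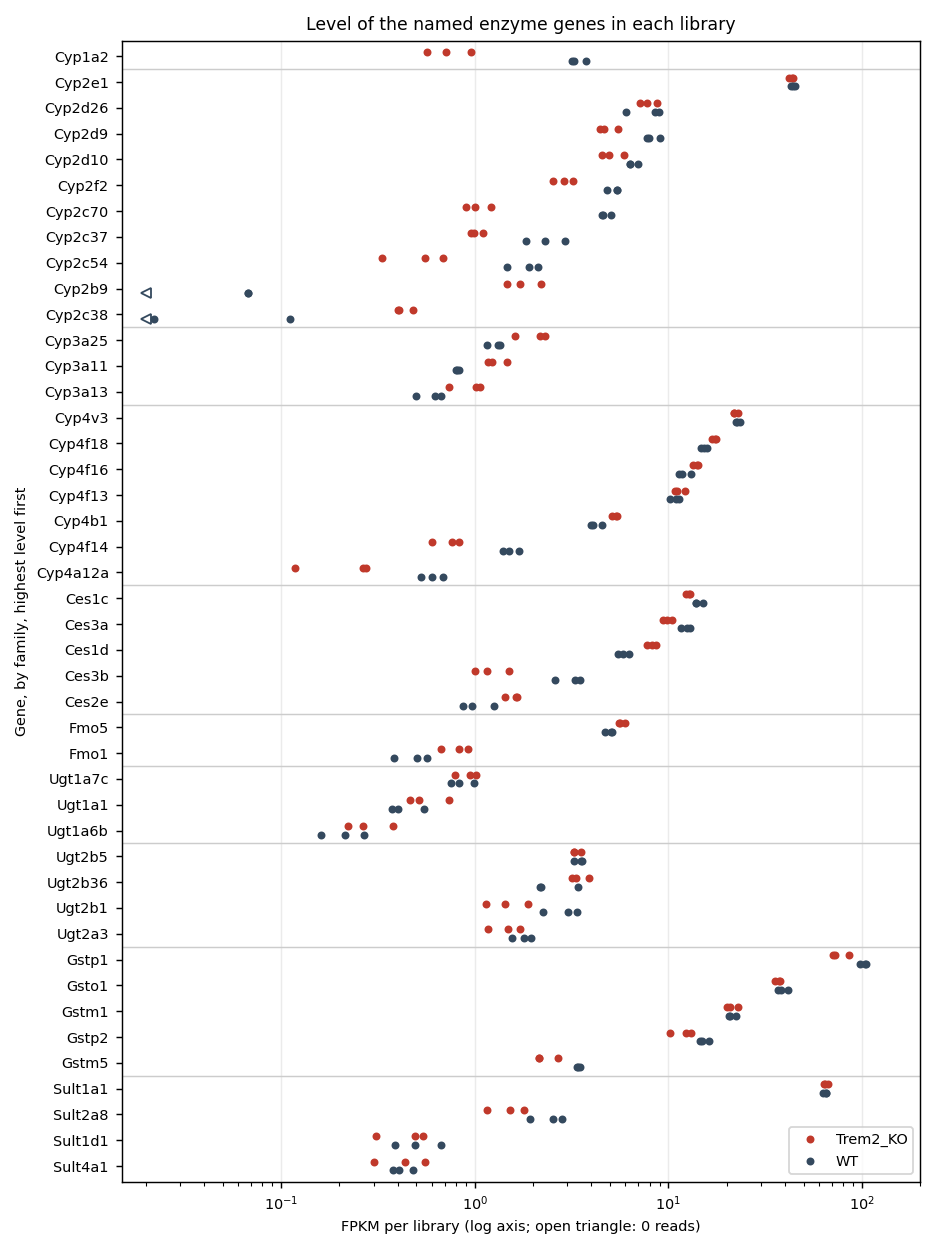
FPKM of the named enzyme genes in each library on a log axis, grouped by family, with Trem2_KO points above WT points in each row and open triangles for libraries with 0 reads. Gstp1, Sult1a1 and Cyp2e1 are the most abundant, and Cyp2b9, Cyp2c38, Cyp2c70 and Cyp1a2 show the widest gaps between the groups.

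The members changed in both directions and not as 1 block. Of the 82, 36 (43.9%) were called at an edgeR adjusted p under 0.05, against 30.3% of all tested genes. Among them 15 (18.3%) were higher in Trem2_KO, against 15.3% of all genes, and 21 (25.6%) were lower, against 15.1%. The median log2 change of the tested members was 0.01, beside -0.01 for all tested genes, and their median absolute log2 change was 0.33, beside 0.16. A change of at least 2-fold was called for 9 members (11%), beside 2.6% of all genes. Of these 9, 7 (8.54%) were lower, beside 0.617% of all genes, and 2 (2.44%) were higher, beside 1.98%. Libraries of the groups did not overlap for 38 of 82 members (46.3%), beside 41.6% of all tested genes, which is close to the background. Both members that rose at least 2-fold, Cyp2b9 and Cyp2c38, passed the filter on low counts through the Trem2_KO libraries alone. Another 72 passed through all libraries of both groups, and 8 missed the minimum in some libraries. With total counts in place of TMM, higher calls made up 61.2% of the calls over all genes, against 50.3% with TMM. DESeq2 called 23 members, and without Trem2_KO replicate 1 edgeR called 9 higher.

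Summed over all 165 genes, the level was 936, 950 and 955 CPM in Trem2_KO, against 996, 1020.3 and 976 CPM in WT. The groups' sums did not overlap, and their ratio was 0.949. The sum over Cyp genes was 427, 429 and 431 CPM in Trem2_KO and 445, 457 and 443 CPM in WT. Of 38 tested Cyp genes, 10 (26.3%) were called higher and 12 (31.6%) lower, beside 15.3% and 15.1% of all tested genes, with 6 higher without Trem2_KO replicate 1 or 2 and 5 without WT replicate 1. Within the P450s the family sums went separate ways, though single genes differed within families. Cyp2 held 4 higher and 9 lower calls, Cyp4 held 3 higher and 2 lower, and Cyp1 had 1 tested gene. Cyp1 genes summed to 0.222 times the WT level and Cyp2 genes to 0.875 times, while Cyp3 genes summed to 1.604 times and Cyp4 genes to 1.04 times. Among the other classes, the Trem2_KO sum was 1.20 times that of WT for Fmo, 0.932 for Ces, 0.897 for Gst, 0.977 for Sult and 0.990 for Ugt. The sums of Sult and Ugt overlapped between the groups, and those of the other 3 classes did not.

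**Figure D2:**
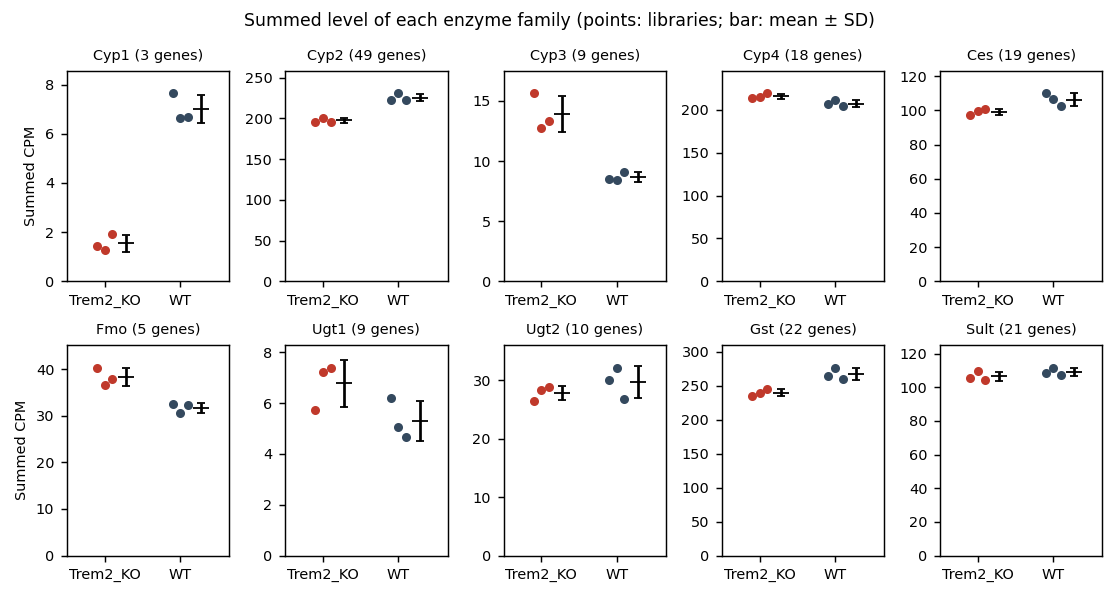
Summed TMM-scaled CPM of each family in each library, Trem2_KO left of WT, with the mean and SD of 3 libraries beside the points and each axis starting at 0. Cyp1 and Cyp2 sums lie below WT in Trem2_KO, Cyp3 and Fmo sums lie above WT, and Sult, Ugt1 and Ugt2 sums overlap.

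**Figure D3:**
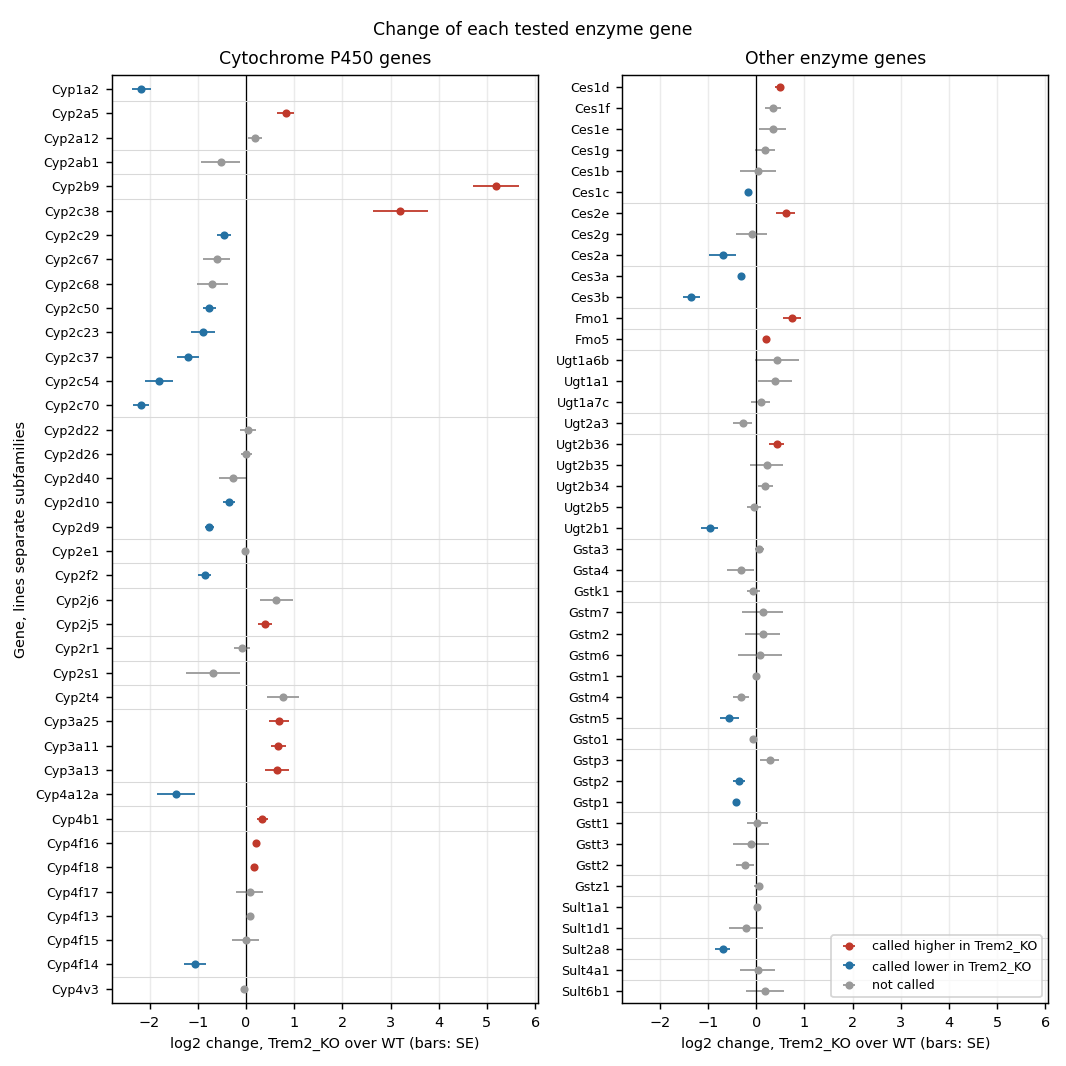
Log2 change of the 82 tested genes, Trem2_KO over WT, with the standard error from the edgeR fit, P450 genes in the left panel and other enzymes in the right panel. Called changes run from -2.18 for Cyp2c70 to 5.19 for Cyp2b9, and the Cyp2c genes other than Cyp2c38 lie left of 0.

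Cyp1 genes were low and their main member fell. Cyp1a2, a hepatocyte P450 that oxidizes caffeine and aromatic amines and a known target of the aryl hydrocarbon receptor, had 25, 19 and 33 reads in Trem2_KO, against 118, 101 and 103 reads in WT. Every Trem2_KO library was below every WT library. The mean was 1.51 ± 0.398 CPM in Trem2_KO and 6.85 ± 0.588 CPM in WT (SD, n = 3 each), a log2 change of -2.17 (SE 0.20, edgeR adjusted p = 8.2e-13). Cyp1a1, the other aryl hydrocarbon receptor target of this group, had 0, 2 and 0 reads in Trem2_KO and 1, 0 and 0 in WT and was not tested. Cyp1b1, which hydroxylates estradiol, had no read in Trem2_KO and 1, 3 and 2 reads in WT. That is 2.16-fold lower with Trem2_KO set at a floor of 3 counts over the group and the WT reads taken as exact. The receptor gene itself, Ahr, had 12.1, 12.2 and 12.9 CPM in Trem2_KO and 10.7, 10.04 and 10.8 CPM in WT, and was not called (log2 change 0.24, edgeR adjusted p = 0.094).

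Most tested Cyp2c genes fell. Of 15 Cyp2c genes, 9 were tested. The fit called 6 of them (66.7%) lower, beside 15.1% of all genes, and 1 higher, with a median log2 change of -0.76. Their summed level was 21.4, 23.3 and 20.3 CPM in Trem2_KO, against 42.2, 41.2 and 40.6 CPM in WT, a ratio of 0.525. Hepatocyte markers, summed, were at 0.913 times WT in the same libraries, with 7 called higher and 9 lower. Alb alone makes up a large part of that sum, and its libraries overlapped between the groups. The part of hepatocyte RNA in the Cyp2c values was not tested. Cyp2c70, the mouse enzyme that makes muricholic acids from chenodeoxycholic acid, had 31, 33 and 41 reads in Trem2_KO, against 143, 157 and 141 in WT. The libraries of the groups lay far apart, with a mean of 2.07 ± 0.315 CPM in Trem2_KO and 9.38 ± 0.560 CPM in WT (SD, n = 3 each). Its log2 change was -2.18 (SE 0.17, edgeR adjusted p = 1.4e-15), the largest fall among the tested members. No 50-base window of its annotated transcript was found in another gene.

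The other Cyp2c genes that fell include fatty acid epoxygenases. Cyp2c54 had 17, 20 and 10 reads in Trem2_KO, against 53, 59 and 41 in WT, with a log2 change of -1.81 (SE 0.29, edgeR adjusted p = 1.2e-06). Cyp2c37 had 35, 29 and 31 reads in Trem2_KO, against 84, 53 and 66 in WT, with a log2 change of -1.21 (SE 0.22, edgeR adjusted p = 2.0e-05). No Trem2_KO library reached a WT library for either gene. Cyp2c50 (log2 change -0.76), Cyp2c23 (-0.89) and Cyp2c29 (-0.46) were also called lower, Cyp2c29 with an edgeR adjusted p of 0.013. Cyp2c67 and Cyp2c68 were not called, at log2 changes of -0.61 and -0.70. Near copies limit the reading of some of them: 30.7% of the 50-base windows of Cyp2c50, 30.1% of Cyp2c37, 25.7% of Cyp2c54 and 52.8% of Cyp2c67 also occur in another gene. The call of Cyp2c29 was lost under DESeq2 (adjusted p = 0.054) and without Trem2_KO replicate 1, Trem2_KO replicate 3 or WT replicate 2.

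Cyp2c38 went the other way. It had 24, 19 and 20 reads in Trem2_KO, against 5, 0 and 1 reads in WT. Every Trem2_KO library was above every WT library, and 1 WT library had no read. This separation is not independent of the filter on low counts, which Cyp2c38 passed through the Trem2_KO libraries alone. The log2 change was 3.20 (SE 0.57, edgeR adjusted p = 1.2e-05) and became 4.98 without WT replicate 1, which holds 5 of the 6 WT reads. The ratio of summed reads, scaled by library size, was 9.71 with an exact counting interval of 4.22 to 27.5 at 95%. Cyp2c39, a retinoic acid hydroxylase that holds 6.88% of the windows of Cyp2c38, had too few reads for the test, 1, 6 and 7 in Trem2_KO and 0, 0 and 2 in WT.

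**Figure D4:**
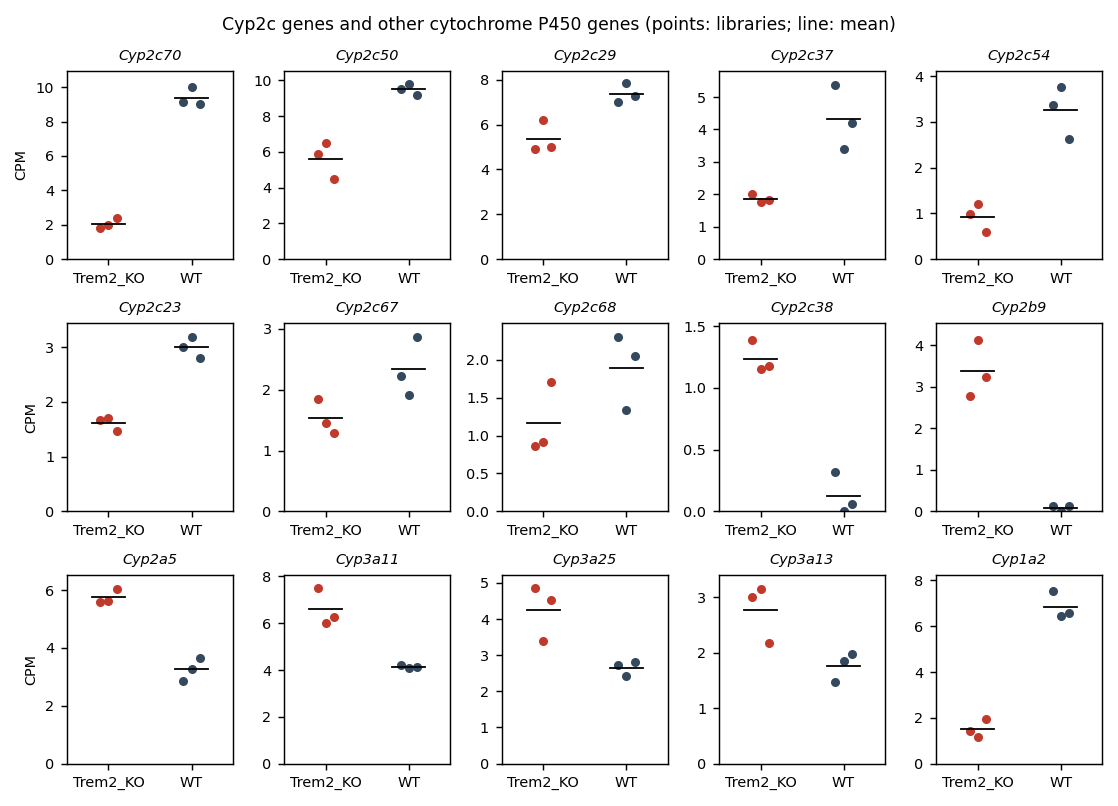
TMM-scaled CPM of 9 Cyp2c genes and 6 other P450 genes in each library, Trem2_KO left of WT, with a line at the mean of 3 libraries and each axis starting at 0. Cyp2c70 averages 2.07 CPM in Trem2_KO and 9.38 CPM in WT, and Cyp2b9 averages 3.37 CPM in Trem2_KO and 0.0851 CPM in WT.

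Cyp2b9 and Cyp2a5 rose. Cyp2b9, a P450 whose liver expression is known to be higher in female than in male mice, had 48, 68 and 55 reads in Trem2_KO, against 2, 0 and 2 reads in WT. It was nearly undetected in all WT libraries and detected in all Trem2_KO libraries. As it passed the filter on low counts through the Trem2_KO libraries alone, this separation is not independent of the filter. The mean was 3.37 ± 0.686 CPM in Trem2_KO and 0.0851 ± 0.0737 CPM in WT (SD, n = 3 each), a log2 change of 5.19 (SE 0.47, edgeR adjusted p = 3.3e-13). The ratio of summed reads was 39.5 with an exact counting interval of 15.2 to 147 at 95%, and 11.2% of its windows occur in another gene, mostly Cyp2b13. Cyp2b13 itself had 1 read in all. Cyp2b10, the classical target of the constitutive androstane receptor, had 4, 4 and 1 reads in Trem2_KO and none in WT. That is 2.77-fold higher with WT set at a floor of 3 counts over the group and the Trem2_KO reads taken as exact. Nr1i3, the gene of that receptor, had 14, 9 and 7 reads in Trem2_KO and 7, 9 and 8 in WT and was not tested.

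Cyp2a5, the coumarin 7-hydroxylase, had 97, 93 and 103 reads in Trem2_KO, against 45, 51 and 57 in WT. The groups did not overlap, and the log2 change was 0.82 (SE 0.17, edgeR adjusted p = 1.7e-04). Cyp2a4, a steroid 15-alpha-hydroxylase known to be higher in female than in male mouse liver, had 2, 6 and 3 reads in Trem2_KO and none in WT. That is 3.39-fold higher against the same floor, again with the Trem2_KO reads taken as exact. Of the windows of Cyp2a5, 40.8% also occur in another gene, mostly Cyp2a4, so their reads may be split between them. Cyp2a12 was not called (log2 change 0.18). Cyp2j5, an arachidonic acid epoxygenase, was called higher with a log2 change of 0.40 (edgeR adjusted p = 0.028), a call lost under DESeq2 (adjusted p = 0.089) and on leaving out Trem2_KO replicate 1 or 2 or WT replicate 1 or 2.

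Among the remaining Cyp2 genes, Cyp2d9, Cyp2d10 and Cyp2f2 fell and Cyp2e1 was not called. Cyp2d9, a testosterone 16-alpha-hydroxylase known to be higher in male than in female mouse liver, had 215, 243 and 202 reads in Trem2_KO, against 380, 333 and 323 in WT. All Trem2_KO libraries were below all WT libraries, with a log2 change of -0.76 (SE 0.10, edgeR adjusted p = 4.9e-09). Cyp2d10 was called lower at -0.35 (edgeR adjusted p = 0.026), which was lost under DESeq2 (adjusted p = 0.085) and on leaving out Trem2_KO replicate 1 or 2 or WT replicate 3. Cyp2d26, the most abundant Cyp2d gene per length at 7.86 FPKM, was not called (log2 change 0.01). Of the windows of Cyp2d9, 29.0% occur in another gene, and of Cyp2d10 40.5%.

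Cyp2f2, which oxidizes naphthalene and marks periportal hepatocytes and airway club cells in the mouse, had 102, 85 and 111 reads in Trem2_KO, against 172, 154 and 172 in WT. The groups did not overlap, and the log2 change was -0.85 (SE 0.13, edgeR adjusted p = 7.5e-07). Cyp2e1, a marker of pericentral hepatocytes, had 94.1, 95.8 and 90.4 CPM in Trem2_KO, against 92.5, 97.4 and 94.9 CPM in WT. The libraries overlapped, and the log2 change was -0.02 (SE 0.04, edgeR adjusted p = 0.74). Cyp1a2, Cyp2e1, Cyp2a5 and Cyp2c29 are among the P450s known as pericentral in mouse liver. Their log2 changes here were -2.17, -0.02, 0.82 and -0.46. These genes were picked after their values were seen, and other pericentral P450s are not listed. Whether the changes go with position in the liver lobule was not tested.

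All 3 tested Cyp3a genes were called higher, beside 15.3% of all tested genes, and the family sum was 15.6, 12.8 and 13.3 CPM in Trem2_KO, against 8.48, 8.43 and 9.13 CPM in WT. Cyp3a11, the main drug-metabolizing Cyp3a enzyme of mouse liver and a target of the pregnane X receptor, had 130, 99 and 107 reads in Trem2_KO, against 66, 64 and 65 in WT. The groups did not overlap, and the log2 change was 0.67 (SE 0.16, edgeR adjusted p = 7.9e-04). Cyp3a25 had 84, 56 and 77 reads in Trem2_KO, against 43, 38 and 44 in WT, with a log2 change of 0.68 (SE 0.20, edgeR adjusted p = 0.0080). Cyp3a13 had 52, 52 and 37 reads in Trem2_KO, against 23, 29 and 31 in WT, with a log2 change of 0.65 (SE 0.25, edgeR adjusted p = 0.044). Neither overlapped between the groups. The call of Cyp3a25 was lost without Trem2_KO replicate 1 (edgeR adjusted p = 0.063). That of Cyp3a13 was lost under DESeq2 (adjusted p = 0.12). It was also lost on leaving out Trem2_KO replicate 1 or 2 or WT replicate 1 or 2. Of the windows of Cyp3a25, 26.8% occur in another gene, mostly Cyp3a59, and of those of Cyp3a11 14.8%. Cyp3a59 had 5, 4 and 6 reads in Trem2_KO and 0, 1 and 3 in WT and was not tested. Nr1i2, which encodes the pregnane X receptor, had 15, 35 and 24 reads in Trem2_KO and 11, 13 and 15 in WT and was not called (log2 change 0.81, edgeR adjusted p = 0.087). Cyp3a16, Cyp3a41a and Cyp3a41b, of which the Cyp3a41 genes are known to be higher in female than in male mouse liver, had no read in any library. Of the windows of Cyp3a41a 98.6%, and of those of Cyp3a41b 93.5%, occur in another gene, mostly each other, so reads that fit both may not have been counted.

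The promoters of the member with the largest rise, the member with the largest fall and the pair of Cyp3a genes with the smallest p are shown as examples of called P450 genes in each direction. Each runs 5′ to 3′ from 250 bases before to 50 bases after the RefSeq start site on GRCm38.p6, with the core hexamer AGGTCA of nuclear receptor sites in capitals on either strand.
Cyp2b9 promoter (chr7:26173159-26173458, plus strand): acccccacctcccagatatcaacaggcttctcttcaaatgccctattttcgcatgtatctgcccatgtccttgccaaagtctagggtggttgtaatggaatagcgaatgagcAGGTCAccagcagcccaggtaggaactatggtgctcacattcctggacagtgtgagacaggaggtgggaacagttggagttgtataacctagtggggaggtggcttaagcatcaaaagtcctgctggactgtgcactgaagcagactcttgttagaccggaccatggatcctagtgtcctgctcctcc
Cyp2c70 promoter (chr19:40187237-40187536, minus strand): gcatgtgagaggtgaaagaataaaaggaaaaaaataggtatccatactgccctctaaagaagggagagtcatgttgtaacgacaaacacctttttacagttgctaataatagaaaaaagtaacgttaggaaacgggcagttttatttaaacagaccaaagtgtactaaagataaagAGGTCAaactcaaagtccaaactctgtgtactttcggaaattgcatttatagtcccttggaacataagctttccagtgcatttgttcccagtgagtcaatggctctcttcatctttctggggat
Cyp3a11 promoter (chr5:145879805-145880104, minus strand): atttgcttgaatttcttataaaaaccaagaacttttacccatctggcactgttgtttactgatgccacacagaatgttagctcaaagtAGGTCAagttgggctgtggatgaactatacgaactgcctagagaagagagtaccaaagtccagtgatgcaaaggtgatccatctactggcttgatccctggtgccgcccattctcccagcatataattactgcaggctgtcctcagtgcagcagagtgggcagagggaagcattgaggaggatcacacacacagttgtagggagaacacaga
Cyp3a25 promoter (chr5:146009569-146009868, minus strand): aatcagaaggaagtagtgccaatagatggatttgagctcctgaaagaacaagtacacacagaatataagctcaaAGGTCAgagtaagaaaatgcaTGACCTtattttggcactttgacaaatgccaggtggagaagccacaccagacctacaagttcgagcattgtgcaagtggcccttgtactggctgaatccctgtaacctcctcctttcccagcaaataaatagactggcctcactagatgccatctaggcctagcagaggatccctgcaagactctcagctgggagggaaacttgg
The hexamer starts 138 bases before the start site in Cyp2b9, 74 bases before it in Cyp2c70 and 162 bases before it in Cyp3a11. Cyp3a25 holds it 176 bases before the start site and again on the other strand 155 bases before it. The window of Cyp3a13, the other Cyp3a gene called higher, does not hold it. Of 139 members with a RefSeq window, 69 were tested. The hexamer was present in 16 of 69 windows of tested members (23.2%), beside 16.0% of 27025 promoters of all genes. By call, it was in 6 of 13 windows of members called higher, 4 of 17 called lower and 6 of 39 not called. The 6 include the related genes Cyp3a11 and Cyp3a25, and whether the motif goes with the calls was not tested. GCGTG, the core of the dioxin response element that the aryl hydrocarbon receptor binds, was present in 11 of 69 tested members (15.9%), beside 32.5% of all promoters. TGACNNNGC, the core of the antioxidant response element, was present in 4 of 69 (5.8%), beside 12.4%. By call, in the same order, GCGTG was in 1 of 13, 3 of 17 and 7 of 39 windows. TGACNNNGC was in 1 of 13, 1 of 17 and 2 of 39. Both strands were searched for each motif, and no match overlapped another motif in the sequences shown. The Cyp1a2 window holds none of these motifs, which says only that the letters are not in this window.

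Cyp4 genes act mainly on fatty acids and eicosanoids, and the abundant ones changed little. Cyp4f18, which hydroxylates leukotriene B4 in mouse leukocytes, had 32.5, 31.3 and 32.8 CPM in Trem2_KO, against 29.5, 28.5 and 27.6 CPM in WT. Cyp4f16 had 42.7, 40.5 and 42.8 CPM in Trem2_KO, against 35.4, 39.6 and 34.2 CPM in WT. All Trem2_KO libraries were above all WT libraries for both genes, and both were called higher, with log2 changes of 0.17 (edgeR adjusted p = 0.046) and 0.21 (edgeR adjusted p = 0.0098). The Cyp4f18 call was lost under DESeq2 (adjusted p = 0.12) and in each of the 6 fits without 1 library. The Cyp4f16 call was lost without WT replicate 1 or WT replicate 3. Of the windows of Cyp4f16, 26.5% occur in another gene, mostly Cyp4f37. Cyp4b1 was called higher at 0.34 (edgeR adjusted p = 0.019), a call lost under DESeq2 (adjusted p = 0.061) and on leaving out Trem2_KO replicate 2 or 3 or WT replicate 1 or 3. Cyp4v3 and Cyp4f13, at 22.5 and 11.1 FPKM, were not called, with log2 changes of -0.04 and 0.07.

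Among the less abundant Cyp4 genes, Cyp4f14 and Cyp4a12a fell. Cyp4f14, a leukotriene and vitamin E hydroxylase, had 32, 24 and 34 reads in Trem2_KO, against 53, 64 and 57 in WT, with a log2 change of -1.06 (SE 0.23, edgeR adjusted p = 2.3e-04). Cyp4a12a, an arachidonic acid 20-hydroxylase known to be higher in male than in female mice, had 5, 11 and 11 reads in Trem2_KO, against 26, 20 and 23 in WT, with a log2 change of -1.45 (SE 0.39, edgeR adjusted p = 0.0030). Neither overlapped between the groups. Of the windows of Cyp4a12a, 48.9% are shared with Cyp4a12b, which had 0, 3 and 5 reads in Trem2_KO and 8, 3 and 8 in WT. Cyp4f14 and Cyp4f16 lie on chromosome 17, more than 15 Mb from Trem2, and moved in opposite directions, while Cyp4f18 lies on chromosome 8.

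Both tested flavin monooxygenases were called higher, beside 15.3% of all tested genes. Fmo5, a Baeyer-Villiger monooxygenase of liver and gut, had 34.1, 32.0 and 31.6 CPM in Trem2_KO, against 28.6, 26.9 and 29.2 CPM in WT, with a log2 change of 0.21 (SE 0.07, edgeR adjusted p = 0.018). Fmo1, which oxidizes nitrogen and sulfur atoms in drugs, had 91, 70 and 99 reads in Trem2_KO, against 56, 50 and 38 in WT, with a log2 change of 0.74 (SE 0.19, edgeR adjusted p = 0.0019). Neither overlapped between the groups. The Fmo5 call was lost under DESeq2 (adjusted p = 0.063) and without Trem2_KO replicate 1 or WT replicate 2.

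Carboxylesterase genes, all on chromosome 8, moved in both directions. Ces3b and Ces3a fell and Ces1d, a triglyceride hydrolase of hepatocytes and adipocytes, rose. Ces3b had 45, 49 and 66 reads in Trem2_KO, against 140, 104 and 133 in WT, with a log2 change of -1.35 (SE 0.17, edgeR adjusted p = 4.7e-09). Ces3a had 430, 452 and 443 reads in Trem2_KO, against 532, 514 and 481 in WT, with a log2 change of -0.32 (SE 0.07, edgeR adjusted p = 3.6e-04). Scaled to library size, no Trem2_KO library reached a WT library for either gene. Of the windows of Ces3b 26.1%, and of those of Ces3a 30.9%, occur in the other gene. Ces1d had 319, 339 and 334 reads in Trem2_KO, against 234, 218 and 204 in WT, with a log2 change of 0.48 (SE 0.09, edgeR adjusted p = 4.3e-05), and the groups did not overlap.

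The other carboxylesterase calls were less firm. Ces1c, the plasma carboxylesterase secreted by the mouse liver, was called lower at -0.17 (edgeR adjusted p = 0.048), Ces2e higher at 0.61 (edgeR adjusted p = 0.016) and Ces2a lower at -0.70 (edgeR adjusted p = 0.049). DESeq2 called none of these 3, with adjusted p of 0.14, 0.057 and 0.14. Ces2a libraries overlapped between the groups, and its call was lost on leaving out Trem2_KO replicate 1 or 3 or WT replicate 1 or 3. Of the windows of Ces2a, 22.2% occur in another gene. The Ces1c call was lost without any 1 library other than WT replicate 3, and the Ces2e call without Trem2_KO replicate 1 or WT replicate 1 or 3.

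Among the conjugating enzymes, the pi-class glutathione S-transferases Gstp1 and Gstp2 were called lower, and Gstp3 was not. Gstp1 had 54.0, 54.9 and 65.4 CPM in Trem2_KO, against 78.7, 80 and 74.5 CPM in WT. The highest Trem2_KO library was below the lowest WT library, and the mean was 76.4 ± 8.36 FPKM in Trem2_KO and 102 ± 3.87 FPKM in WT (SD, n = 3 each). The log2 change was -0.42 (SE 0.06, edgeR adjusted p = 1.9e-07). Gstp2, its neighbour on chromosome 19, had 166, 167 and 134 reads in Trem2_KO, against 197, 180 and 177 in WT, with a log2 change of -0.36 (SE 0.12, edgeR adjusted p = 0.017). Gstp1 and Gstp2 share 62.3% and 64.3% of their windows with each other, so how their reads divide is uncertain. Gstp3, the other gene of the cluster, was not called (log2 change 0.28), with Trem2_KO libraries above WT libraries. Limma on log2(FPKM + 1) and on log2(FPKM + 0.1) called Gstp3 higher. The Gstp2 call was lost under DESeq2 (adjusted p = 0.063) and without Trem2_KO replicate 3 or WT replicate 1.

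Over all 17 tested Gst genes, with Gstp1 and Gstp2 among them, 3 were called lower (17.6%), near the 15.1% of all genes, and edgeR called 0 higher. None was higher at an unadjusted p under 0.05, none under DESeq2 or limma-voom, and 1, Gstp3, with limma on log2(FPKM + 1). Gstm5 was called lower at -0.56 (edgeR adjusted p = 0.023), lost under DESeq2 (adjusted p = 0.076) and on leaving out Trem2_KO replicate 1 or 3 or WT replicate 2. Gsto1 was not called, with 74.6, 73.3 and 70.2 CPM in Trem2_KO and 72.8, 82.2 and 75.1 CPM in WT and a log2 change of -0.08 (SE 0.05, edgeR adjusted p = 0.26). Gstm1 was not called either (log2 change 0.00, SE 0.07). Gsto1 overlaps Cfap43 on the other strand, and the sources used here give no strand setting for the counts.

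Sulfotransferases were carried by Sult1a1, which had 95.8, 101 and 96.9 CPM in Trem2_KO, against 98.4, 98.3 and 94.9 CPM in WT. The libraries overlapped, and the log2 change was 0.01 (SE 0.04, edgeR adjusted p = 0.87). Sult2a8, a bile acid sulfotransferase of mouse liver, fell, with 103, 63 and 85 reads in Trem2_KO, against 99, 146 and 131 in WT. Scaled to library size it had 5.95, 3.82 and 4.99 CPM in Trem2_KO and 6.31, 9.32 and 8.36 CPM in WT, without overlap, and the log2 change was -0.70 (SE 0.16, edgeR adjusted p = 5.8e-04). Sult2a1 to Sult2a6, and Sult3a1 and Sult3a2, had no read in any library. Sult1d1 and Sult4a1 were near 1 CPM and not called. Sult1a1 overlaps Sgf29 on the other strand.

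Of 9 tested glucuronosyltransferases, 1 (11.1%) was called higher and 1 (11.1%) lower, beside 15.3% and 15.1% of all tested genes. Ugt2b1 fell and Ugt2b36 had the other call. Ugt2b1 had 51, 80 and 63 reads in Trem2_KO, against 137, 123 and 91 in WT, without overlap, and a log2 change of -0.96 (SE 0.17, edgeR adjusted p = 1.6e-05). Ugt2b36 was called higher at 0.43 (edgeR adjusted p = 0.035), with overlapping libraries, and its call was lost under DESeq2 (adjusted p = 0.12) and on leaving out Trem2_KO replicate 1 or 3 or WT replicate 1 or 3. Ugt2b5, at 3.39 FPKM the most abundant of the family per length, was not called (log2 change -0.04). The Ugt1a genes share their last exons, and none of the 3 tested, Ugt1a7c, Ugt1a1 and Ugt1a6b, was called by edgeR or was under an unadjusted p of 0.05. Ugt1a5, under the filter, had 4, 16 and 11 reads in Trem2_KO and 1, 0 and 1 in WT. The ratio of summed reads was 14.3 with an exact counting interval of 3.65 to 124 at 95%. Ugt1a5 was called with no filter and in the fits without Trem2_KO replicate 1 or WT replicate 1, 2 or 3. Of its windows, 64.0% occur in another gene, mostly Ugt1a2.

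Members were also grouped by position. On chromosome 19, which holds the Cyp2c and Gstp clusters, edgeR called 8 of 13 tested members lower and 1 higher, beside 15.1% lower and 15.3% higher over all tested genes. On chromosome 5, which holds the Cyp3a and Ugt2 clusters, 4 of 10 were called higher and 1 lower, beside the same shares. On chromosome 8, with the Ces clusters, 3 of 13 were called higher and 4 lower, beside the same shares. Genes of 1 cluster share sequence and position and are not independent of each other.

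The enzymes' partners and the neighbouring steps of the pathway were read from lists outside the members, whose counts stand beside 15.3% higher and 15.1% lower calls over all tested genes. Of 28 tested oxidoreductase partners and other phase I enzymes, 5 had higher and 8 lower calls, with a median log2 change of -0.07. Aldh2, the mitochondrial aldehyde dehydrogenase, fell by 0.38, Akr1a1, an aldehyde reductase, fell by 0.21 and Aldh1a1, a retinaldehyde dehydrogenase, rose by 0.46 on the log2 scale. Por, the electron donor of the microsomal P450s, was not called (log2 change 0.00, edgeR adjusted p = 0.96). Of 21 other phase II enzymes, 1 was called higher and 10 lower, with a median of -0.18. Gnmt, the glycine N-methyltransferase, rose by 0.75, while Bpnt1, which clears the by-product of sulfation, fell by 0.34.

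Of 20 transporters, 6 were called higher and 4 lower, beside 15.3% and 15.1% of all tested genes, with a median log2 change of 0.11. Slco1a1, an organic anion uptake carrier known to be higher in male mouse liver, had 5, 12 and 15 reads in Trem2_KO, against 105, 85 and 79 in WT, with a log2 change of -3.17 (SE 0.27, edgeR adjusted p = 2.6e-14). Slc29a1, a nucleoside carrier, fell by 0.33 and Abcc5, an efflux pump, rose by 0.24. Of 21 xenobiotic-sensing receptors and partners, 7 were called higher and 1 lower, with a median of 0.08. Tiparp, a known target and repressor of the aryl hydrocarbon receptor, rose by 0.68, Maff by 1.07 and Mafg by 0.24, both small Maf partners of NRF2. Nfe2l2, which encodes NRF2, was the gene called lower, at -0.15. Kupffer cell markers, summed, were lower and hepatocyte markers were at 0.913 times WT in the same libraries, and their part in these list counts was not tested.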

How the data were processed

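RNA of 6 Kupffer cell libraries, 3 Trem2_KO and 3 WT, was sequenced after an Illumina TruSeq preparation of total RNA, per the labels. The deposited counts are whole reads per gene with no normalization, and the authors also deposited FPKM, in which each count is scaled by gene length and by a factor common to the library. Tools listed in the submitters' processing notes, with no role or order, are DESeq2 1.16.1, featureCounts 1.5.0-p3 and HISAT2 2.0.5, and the builds are GRCm38 and mm10. The sources used here give neither the strand setting nor how reads that fit several genes were treated.

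The counts went into the quasi-likelihood test of edgeR 4.0.16 under R 4.3.3, after filterByExpr and TMM scaling, with robust dispersion and genotype as the sole term. Benjamini-Hochberg adjustment ran over 13776 genes, and a gene was called at an adjusted p under 0.05. Standard errors follow from the quasi-F statistic. A gene with 0 reads in a library could have up to 3, which is 0.173 to 0.192 CPM. Intervals and this limit cover counting error only. A fold against the floor takes the reads of the other group as exact, so it is not a lower bound.

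The members, gene lists and tests were chosen with earlier results of these data known, so list counts are descriptions. Named by rule were, per family, up to 4 tested members with the highest mean FPKM, up to 4 called members with the smallest p, and every called member that changed at least 2-fold. For the other lists, up to 3 called genes with the smallest p were named. A gene selected this way may be not reported here. Other genes given were chosen after their values were seen. Near copies were sought as 50-base windows of GENCODE M21 transcripts found in another gene; protein identity was not analysed here. Promoter windows are RefSeq's, 1 per gene symbol, on GRCm38.p6. The alternatives comprised DESeq2 1.42.0, limma-voom and limma on log2 FPKM (limma 3.58.1), different scalings, filters and thresholds, protein-coding genes only, a replicate block, and removal of each library in turn. Fits with a fixed biological coefficient of variation were added after the data were seen.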

Additional observations from a re-analysis of the deposited data

How the results depend on the processing

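No called member changed sign under any alternative run. Calls among the 82 tested members were 36, and they numbered 33 to 36 under the other scaling by size factors, limma-voom, limma on log2(FPKM + 1) or log2(FPKM + 0.1), total counts and protein-coding genes only. A stricter filter left 73 members, of which 33 were called. With no filter 123 were tested and 34 called, 32 of them among the 36, and the others were Cyp2a4 and Ugt1a5. DESeq2 called 23 (8 higher), an adjusted p under 0.01 left 23 (8 higher), and limma on log2(FPKM + 1) with no filter called 22 (7 higher), with 1979 calls over all genes. Leaving out 1 library, with 82 or 83 members tested, gave 25 to 30 calls, 9 to 12 of them higher (9 without Trem2_KO replicate 1), and a median log2 change of the tested members of -0.045 to 0.021. With total counts that median was 0.036.

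By class, DESeq2 and the stricter threshold each called 1 Ces gene higher and 2 lower, 6 Cyp and 1 Fmo higher, 1 Gst lower and 0 Ugt higher. Total counts, limma-voom and a coefficient of variation of 0.1 each called 2 Ces genes lower. With no filter 2 Ugt genes were higher. Limma on log2(FPKM + 1) and log2(FPKM + 0.1) called 1 Fmo, 1 Gst and 0 Ugt genes higher. On log2(FPKM + 1) with no filter, the calls were 1 Ces, 6 Cyp, 0 Fmo and 0 Ugt genes higher, and 0 Sult and 0 Ugt genes lower. Without 1 library, calls ran from 1 to 2 for Ces higher, 2 to 3 for Ces lower, 5 to 8 for Cyp higher, 1 to 2 for Fmo higher, 1 to 3 for Gst lower and 0 to 2 for Ugt higher. The cause was not tested.

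The coefficient of variation between libraries was estimated at 0.0378. Fixed at 0.1, it left 1487 calls over all genes and 26 among members, 9 of them higher. At that value 6 Cyp, 1 Fmo and 0 Ugt genes were higher. At 0.2, 371 genes were called over all genes, with 11 members (2 higher, 9 lower): 2 Cyp genes higher and 7 lower, 1 Ces gene lower, and 0 for Ces, Fmo and Ugt higher and for Gst and Sult lower.

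With the replicate number as a block, 33 members and 4230 genes were called, with 2 Ces genes lower. Same-numbered libraries correlated at -0.01, 0.01 and 0.05 in their deviations from the group means. With few and near-alike libraries such a check could miss a pairing, so whether the numbers pair libraries is not known.

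Without 1 library, the sign turned for 20 of the 46 members with no call. Of these, 6 belong to the members named by rule. Cyp2e1 was 0.0073 with total counts and -0.044 to 0.0011 without 1 library. Cyp2d26 was -0.0056 with no filter and -0.15 to 0.11 without 1 library. Gstm1 was -0.0099 with no filter, -0.00020 on log2(FPKM + 1) with or without the filter, -0.00026 on log2(FPKM + 0.1) and -0.053 to 0.045 without 1 library. Sult1a1 was -0.0018 with no filter and -0.013 to 0.028 without 1 library. Sult4a1 was -0.012 with limma-voom, -0.0016 on log2(FPKM + 0.1) and -0.19 to 0.22 without 1 library. Sult1d1 was -0.38 to 0.019 without 1 library.

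Depth limits the low members: 41 of the 123 detected ones were below the filter. For some of them read counts are given, with a ratio or a fold against the floor and no test in the main fit. The fit with no filter did test them and called Cyp2a4 and Ugt1a5.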
